A study of Mus musculus with 8 samples.

Results

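Lysosomal hydrolases, the cathepsins among them, and the proteins that sort, activate and house them were followed in type 1 conventional dendritic cells (cDC1), the dendritic cell subset best known for cross-presenting antigen to CD8 T cells. The 47 genes were taken by symbol from the platform annotation: 10 cysteine cathepsins, 6 other enzymes of antigen processing, 2 protease inhibitors, 10 glycosidases, 4 sulfatases and lipid hydrolases, 3 activator and granulin genes, 6 membrane proteins, 3 transcription factors of the MiT family and 3 sorting receptors. Of these, 45 had a probe set, 1 each, among the 19505 genes named on the array, and Ctsd and Glb1 were not analysed here. The cells were cDC1 from the spleens of naive wild-type C57BL/6 mice, sorted by dye signal into TMRM/MG-high (4 arrays) and TMRM/MG-low cells (4 arrays). Mitochondria take up more TMRM at a higher membrane potential, and what MG stands for is not spelled out in the labels. All 8 arrays share strain, tissue and naive state, and the labels give no age or sex, nor whether animals were pooled. No label says that replicates came from separate animals, so the p-values rest on the spread among these arrays, which may be technical.

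Lysosomes digest what a cell takes up by endocytosis or autophagy. In dendritic cells their proteases cut antigens into peptides and trim the invariant chain from MHC class II, and how fast they do so bears on whether antigen is kept for presentation. Most lysosomal enzymes reach the organelle by a mannose 6-phosphate tag that receptors recognise in the Golgi, and factors of the MiT family (TFEB, TFE3, MITF) can switch many of the genes on together through a promoter element with the core CACGTG.

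Promoter stretches that hold this core are shown here because the genes below include 1 that rose, 1 that fell and several that did not pass the test although their promoters hold it. RefSeq promoters (GRCm38.p6, 250 bases before to 50 after a start) were matched for 39 of the 47 genes, and Asah1, Cstb, Ctsb, Ctse, Ctsh, Ctsw, M6pr and Sort1 had no entry. Both strands were searched. CACGTG, which reads the same on both strands, was found for 12 of the 39 (30.8%), against 7.15% of all 32851 promoter entries and 8.09% of 27025 genes. These were Arsa, Ctsa, Ctsd, Ctsf, Ctsl, Gaa, Gla, Glb1, Ifi30, Igf2r, Lamp1 and Lgmn. The longer TCACGTGA, which contains CACGTG, was found for Ctsa, Ctsd, Gla, Ifi30 and Igf2r (12.8%, against 0.974% of all promoter entries and 1.12% of genes). The related TCATGTGA (TCACATGA on the other strand), which is close to TCACGTGA but does not contain CACGTG, was found for Ctss, Gla, Grn, Igf2r and Tpp1 (12.8%, against 0.986% of all promoter entries and 1.15% of genes). Gla and Igf2r held both TCACGTGA and TCATGTGA. Genes of 1 pathway are not a random draw of promoters, and these shares are a description without a test. The stretches below run 5′ to 3′ on the gene's strand and end before the start site, with CACGTG in capitals.
Igf2r, chr17:12769707-12769781, minus strand: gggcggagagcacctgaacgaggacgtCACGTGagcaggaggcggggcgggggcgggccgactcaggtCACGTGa
Ctsl, chr13:64370711-64370770, minus strand: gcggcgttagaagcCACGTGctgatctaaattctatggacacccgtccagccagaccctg
Lamp1, chr8:13159086-13159160, plus strand: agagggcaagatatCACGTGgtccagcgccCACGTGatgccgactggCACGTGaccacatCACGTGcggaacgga
Gla, chrX:134601171-134601245, minus strand: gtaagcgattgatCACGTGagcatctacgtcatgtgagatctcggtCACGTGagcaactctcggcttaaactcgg
Ifi30, chr8:70766827-70766886, minus strand: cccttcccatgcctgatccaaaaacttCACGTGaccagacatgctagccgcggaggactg
Lamp1 carries the core 4 times within 75 bases, and Igf2r and Gla carry it 2 times each.

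In TMRM/MG-high cDC1 the cysteine protease gene Ctsl, the mannosidase gene Manba and the transcription factor gene Mitf rose, and Igf2r, a receptor that carries tagged enzymes to the lysosome, fell. The other 41 measured genes did not pass the test (limma, Benjamini-Hochberg adjusted p under 0.05 over 22206 probe sets). Higher calls were 3 of 45 (6.67%), against 5.28% of all probe sets tested, and lower calls 1 of 45 (2.22%), against 2.96%, so neither share stands far from the background. Of all probe sets 1173 were called higher and 658 lower, against 852 higher and 858 lower after quantile normalization of the tested probe sets. At an unadjusted p under 0.05, 15 were higher (33.3%, against 15.3%) and 2 lower (4.44%, against 10.1%). With an intensity trend and a robust fit in limma 13 of 45 were called higher (28.9%, against 8.78% of all probe sets). These were the 3 above and Asah1, Cd63, Cst3, Ctsb, Ctsc, Ctss, Ctsz, Grn, Lamp2 and M6pr, and 1 of 45 was lower (2.22%, against 3.94%). That fit lets the SE vary with signal level, and for Cst3, the brightest of the 45, it went from 0.075 to 0.033. The 45 genes and all probe sets were not matched for signal level, so these shares are not like for like. With dim probe sets left out and no trend, 4 of 44 were called higher (9.09%, against 8.32% of the probe sets kept). Without high replicate 2, without high replicate 4 or without low replicate 4, 1 gene (Ctsl) was called higher, and without high replicate 2, 3 or 4 or low replicate 2 none was called lower. The 45 differences (log2, TMRM/MG-high minus TMRM/MG-low) ran from -0.47 in Ctsw to 0.87 in Ctsl, with a median of 0.13, against a median of 0.0093 over all probe sets. They were above 0 for 36 of the 45 genes (80%), against 52.1% of all probe sets. This share depends on the setting. It was 66.7% (median 0.078) after quantile normalization, against 49.4% of all probe sets (median -0.0026). With the level of the spike-in RNAs described below as a covariate it was 33.3% (15 of 45, median -0.045), against 53.8% of all probe sets (median 0.024). The 4 high arrays lay above the 4 low arrays without overlap for 11 genes (24.4%), against 9.7% of all probe sets, and below them for Igf2r (2.22%), against 6.37%. The same shares over all probe sets are the background for the counts by role below, in groups too small for a share to say much.

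**Figure D1:**
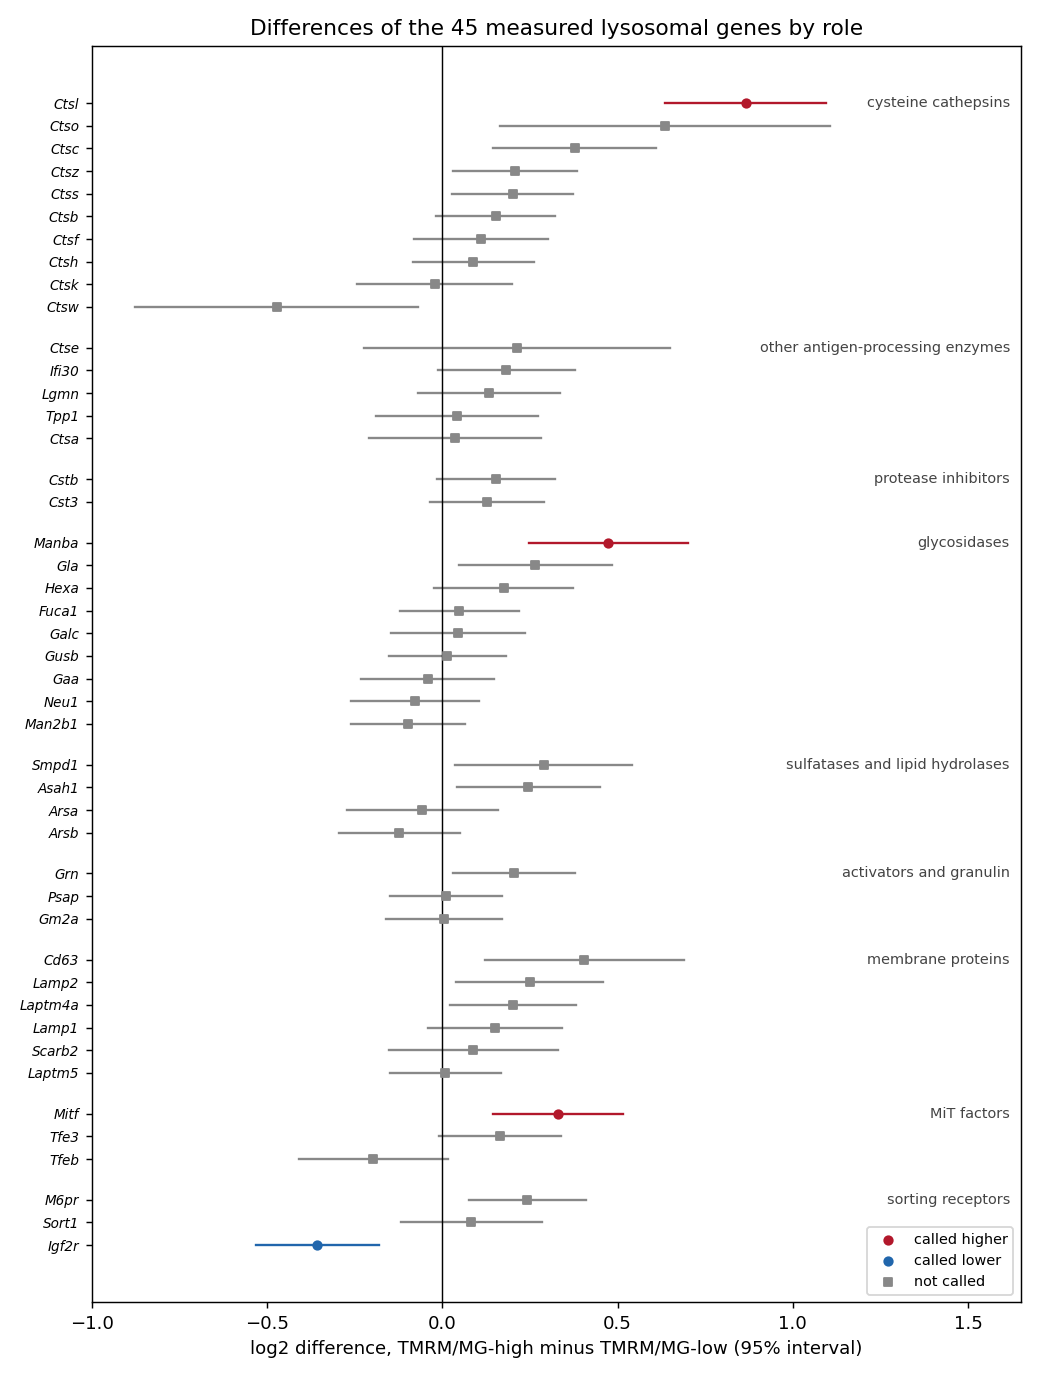
Log2 difference of each measured gene, TMRM/MG-high minus TMRM/MG-low, with its 95% interval from limma, grouped by role from the cysteine cathepsins at the top to the sorting receptors at the bottom. Red marks called higher genes, blue called lower and grey squares genes not called. Ctsl at 0.87 lies farthest from 0, and most grey intervals reach across 0 or end close to it.

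Spike-in RNAs differ between the fractions and bear on every comparison below. The poly-A spike-in dap, an RNA added in a fixed amount before labelling, had log2 signals of 6.52 to 8.35 on the high arrays and 9.06 to 10.04 on the low arrays. Of the spike-ins only dap is given singly. The mean level of all probe sets classed as spike-ins, not parted by kind, was 8.88 to 9.43 on the high and 9.79 to 10.23 on the low arrays. With this mean added as a covariate, limma called 0 of 22206 probe sets and 0 of the 45 genes. At an unadjusted p under 0.05, 2 of the 45 were higher and 1 lower. The covariate did not overlap between the fractions, so this fit can hardly part it from the fraction. Its SE rose as well (Ctsl 0.11 to 0.26). Lost calls and turned signs in this fit do not show whether spike-in level lies behind a difference. The part of the spike-ins in the differences was not tested beyond this. The cDC1 markers Xcr1, Clec9a, Irf8, Batf3, Cd8a, Itgae, Cadm1 and Tlr3 were all above the negative controls in both fractions, and 0 of these 8 was called (2 higher and 1 lower at an unadjusted p under 0.05). Their mean log2 signal spanned 11.75 to 11.93 on the high and 11.67 to 11.96 on the low arrays. In bulk samples fewer cells of a type and less RNA per cell cannot be told apart.

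Cysteine cathepsins are the papain-like proteases of the lysosome, and 1 of 10, Ctsl, was called. Cathepsin L degrades the invariant chain in thymic epithelium and is a broad endopeptidase elsewhere. Ctsl had log2 signals of 9.29, 9.58, 9.19 and 9.46 on the high arrays, against 8.33, 8.52, 8.63 and 8.57 on the low arrays. Every high array lay well above every low array. The high arrays averaged 9.38 ± 0.18 and the low arrays 8.51 ± 0.13 (SD, n = 4 each), a difference of 0.87 (SE 0.11, limma adjusted p = 0.00178), or 1.82-fold. It was called on leaving out any 1 of the 8 arrays (0.80 to 0.93, highest limma adjusted p = 0.00784). With the spike-in covariate it was 0.62 (SE 0.26) and not called. Markers of plasmacytoid dendritic cells, a related lineage, moved the same way: 8 of 10 were called higher and 0 lower, and their summed linear signal was 12785 to 16260 on the high and 8401 to 9119 on the low arrays, with none of the 10 below the negative controls in both fractions. Of 11 red pulp macrophage and monocyte markers 9 had differences above 0 (81.8%, against 52.1% of all probe sets, median 0.16). Ly6c2 was called higher (0.85, limma adjusted p = 0.00677), and no other of the 11 was called or had an unadjusted p under 0.05. Their summed linear signals overlapped, with 11486 to 17574 on the high and 11627 to 14425 on the low arrays, and none was below the negative controls in both fractions. The part of either list in the Ctsl difference was not tested.

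Ctsc, the dipeptidyl peptidase that activates granule proteases, lay just outside the threshold. Its signals were 10.74, 10.98, 10.90 and 11.18 on the high arrays, against 10.50, 10.42, 10.65 and 10.71 on the low arrays. The groups did not overlap, though high replicate 1 and low replicate 4 were almost level. The difference was 0.38 (SE 0.11, limma adjusted p = 0.0506). Without high replicate 1 it was 0.45 and called (limma adjusted p = 0.0303). With the spike-in covariate it turned to -0.13 (SE 0.22).

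Ctsb, Ctss and Ctsz are the endopeptidases and the carboxypeptidase that mouse antigen-presenting cells are best known for, and Ctss is the protease that trims the invariant chain in dendritic cells. None of them was called. Ctss had signals of 11.62, 11.74, 11.69 and 11.75 on the high arrays, against 11.44, 11.44, 11.53 and 11.60 on the low arrays, a difference of 0.20 (95% interval 0.028 to 0.37, limma adjusted p = 0.140). The high arrays lay above the low ones by a narrow margin. Ctsz gave a like picture, with 12.27 to 12.46 on the high and 12.05 to 12.23 on the low arrays and a difference of 0.21 (95% interval 0.032 to 0.39). Ctsb overlapped, with 12.51 to 12.68 on the high and 12.42 to 12.54 on the low arrays (0.15, 95% interval -0.019 to 0.32). Ctsb, Ctss, Ctsz, Ctso, Ctsw, Lamp1 and Tfeb are given with statistics because of their values or their place in the pathway, a choice made with their values in view.

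Ctso and Ctsw had differences of opposite sign and a wide spread within the fractions. Ctso, a little studied cathepsin, had signals of 8.77, 9.21, 9.18 and 9.58 on the high arrays, against 7.92, 8.81, 8.99 and 8.48 on the low arrays (0.63, SE 0.22, limma adjusted p = 0.0912). Low replicates 2 and 3 lay above high replicate 1, and without low replicate 3 the gene was called (0.78). Ctsw, the cathepsin of cytotoxic T and NK cells, had signals of 8.24, 8.60, 8.29 and 8.77 on the high arrays, against 8.91, 9.34, 8.39 and 9.16 on the low arrays (-0.47, SE 0.19, limma adjusted p = 0.137). Low replicate 3 lay among the high arrays, and without it Ctsw was called lower (-0.66, limma adjusted p = 0.0185). Each high array lay above the low array of the same number for Ctso and below it for Ctsw. With the replicate number as a block both were called (limma adjusted p = 0.0344 for Ctso and 0.0411 for Ctsw).

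T and NK cell markers ran along with Ctsw. Of 11 measured, 3 were called lower (Cd3d, Cd3e and Cd3g), 0 higher, and 8 were lower at an unadjusted p under 0.05. Their mean log2 signal was 8.76, 9.02, 8.66 and 9.19 on the high arrays, against 9.50, 9.83, 8.94 and 9.68 on the low arrays, so low replicate 3 was the lowest low array in both. The summed linear signal of the 11 was 4928 to 7309 on the high and 5953 to 11381 on the low arrays, and none of them was below the negative controls in both fractions. Their part in the Ctsw values was not tested.

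Ctsf and Ctsh, with Ctsk, complete the cysteine cathepsins, and none was called. Ctsh, an aminopeptidase, had 12.00 to 12.18 on the high and 11.94 to 12.02 on the low arrays, and Ctsf 7.56 to 7.82 on the high and 7.53 to 7.70 on the low. Ctsk, the collagenase of osteoclasts, had 6.45 to 6.72 on the high and 6.43 to 6.81 on the low arrays. Its means lay below the median of the negative control probe sets in both fractions (6.86 high, 6.76 low), so no difference can be read from it. The 8 placental cathepsins on the array (Cts3, Cts6, Cts7, Cts8, Ctsj, Ctsm, Ctsq and Ctsr), relatives of Ctsl that spleen is not known to use, had 0 calls (0 higher and 1 lower at an unadjusted p under 0.05), and 5 of them lay below the negative controls in both fractions. Cts3, Cts7 and Ctsm lay above them. Cts3 had 7.96 to 8.49 on the high and 7.96 to 8.46 on the low arrays. Manba (8.08 to 8.41) and Mitf (8.01 to 8.30) were at a like level on the low arrays. A signal above the negative controls therefore does not by itself show that a dim gene is expressed.

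**Figure D2:**
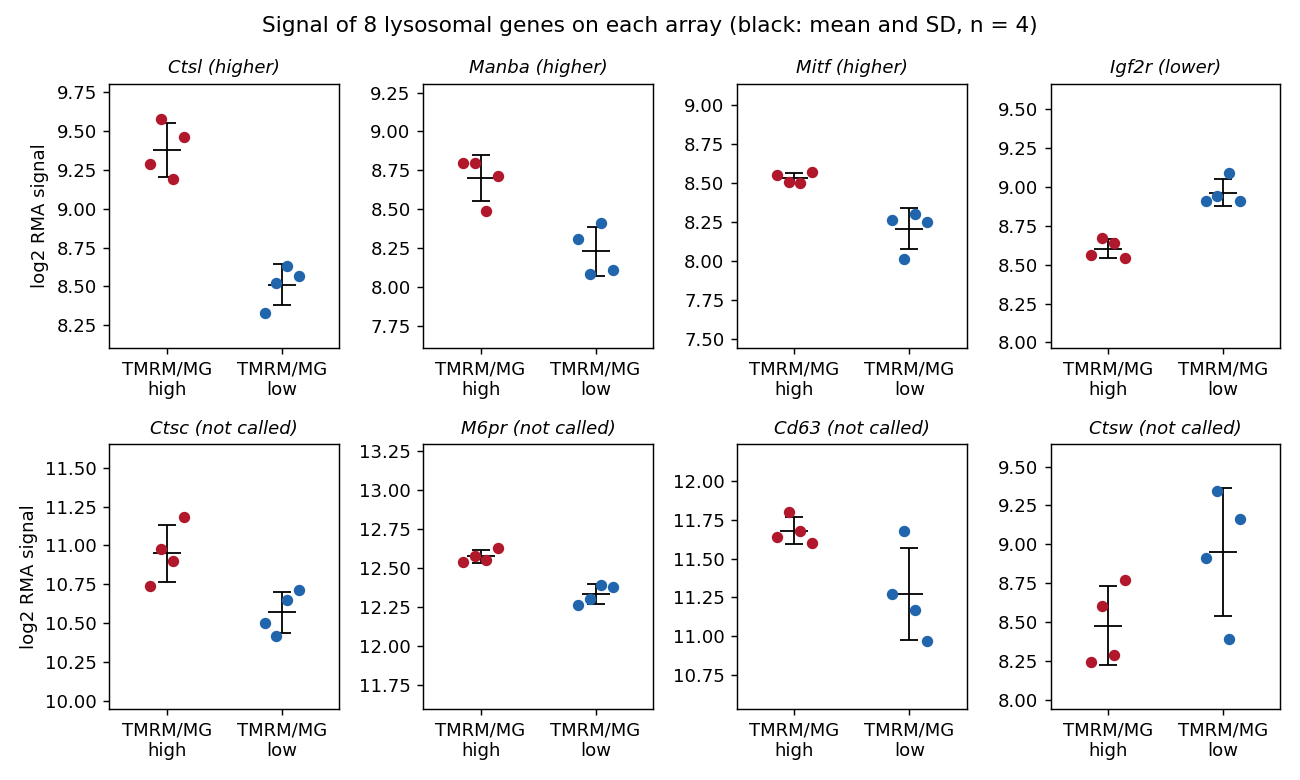
Log2 RMA signal of 8 lysosomal genes on each array, TMRM/MG-high in red on the left and TMRM/MG-low in blue on the right of each panel, with the mean and SD in black (n = 4 each) and the same axis span in every panel. The groups are apart for Ctsl, Manba, Mitf, Igf2r, Ctsc and M6pr, and overlap for Cd63 and Ctsw.

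The other enzymes of antigen processing measured were the serine carboxypeptidase Ctsa, the aspartic protease Ctse, the asparaginyl endopeptidase Lgmn, the tripeptidyl peptidase Tpp1 and the thiol reductase Ifi30, which opens disulfide bonds of antigens. Of these 5, 0 were called, and 0 had an unadjusted p under 0.05. Ifi30 had signals of 12.39, 12.64, 12.58 and 12.61 on the high arrays, against 12.23, 12.48, 12.41 and 12.37 on the low arrays (0.18, 95% interval -0.013 to 0.38, limma adjusted p = 0.229). High replicate 1 lay within the range of the low arrays. Lgmn had 12.48 to 12.69 on the high and 12.25 to 12.57 on the low arrays (0.13, 95% interval -0.069 to 0.34). Ctse scattered most, from 8.80 to 9.49 on the high and 8.40 to 9.28 on the low arrays. Ctsa had 9.88 to 10.34 on the high and 9.89 to 10.18 on the low arrays, and Tpp1 9.29 to 9.74 on the high and 9.37 to 9.63 on the low.

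Cystatin C (Cst3), secreted and carried in the endocytic pathway, and cystatin B (Cstb), of the cytosol, block cysteine cathepsins. Cst3 had signals of 13.85, 13.94, 13.98 and 13.91 on the high arrays, against 13.76, 13.84, 13.81 and 13.75 on the low arrays. Cstb had 11.04, 11.22, 11.08 and 11.10 on the high arrays, against 10.93, 11.00, 10.97 and 10.92 on the low arrays. In both genes every high array lay above every low array, by a small margin, as was so for 9.7% of all probe sets. The differences were 0.13 for Cst3 (95% interval -0.036 to 0.29) and 0.15 for Cstb (95% interval -0.015 to 0.32), and neither was called (limma adjusted p = 0.317 and 0.239; 0 of 2 at an unadjusted p under 0.05).

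Among the glycosidases, which strip sugars from glycoproteins and glycolipids, 1 of 9 measured was called. Manba, beta-mannosidase, which removes the last mannose of N-glycans, had signals of 8.80, 8.80, 8.49 and 8.71 on the high arrays, against 8.31, 8.08, 8.41 and 8.11 on the low arrays. The groups did not overlap, with high replicate 3 and low replicate 3 nearest to each other. The high arrays averaged 8.70 ± 0.14 and the low arrays 8.23 ± 0.16 (SD, n = 4 each), a difference of 0.47 (SE 0.10, limma adjusted p = 0.0221), or 1.39-fold. The call was lost without high replicate 2 or 4 or without low replicate 2 or 4 (highest limma adjusted p = 0.0739), while the difference stayed between 0.42 and 0.54 over the 8 omissions.

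Gla, alpha-galactosidase A, whose promoter stretch is shown above, was the next of the glycosidases by p-value. It had 8.93, 9.09, 8.97 and 9.30 on the high arrays, against 8.79, 8.72, 8.75 and 8.97 on the low arrays (0.27, SE 0.10, limma adjusted p = 0.124). Low replicate 4 reached into the range of the high arrays. Fuca1, alpha-fucosidase, had 12.94 to 13.07 on the high and 12.87 to 13.04 on the low arrays (0.048, 95% interval -0.12 to 0.22). Gaa, Galc, Gusb, Hexa, Man2b1 and Neu1 were not called, and the 9 glycosidases had a median difference of 0.043. Man2b1, the alpha-mannosidase that acts on the same glycans as Manba, had 12.69 to 12.77 on the high and 12.77 to 12.90 on the low arrays.

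The sulfatases Arsa and Arsb, the ceramidase Asah1 and the sphingomyelinase Smpd1 had 0 calls among 4. At an unadjusted p under 0.05, 2 were higher (50%, against 15.3% of all probe sets). Asah1 had signals of 11.74, 11.84, 11.76 and 11.64 on the high arrays, against 11.29, 11.48, 11.63 and 11.59 on the low arrays (0.25, SE 0.093, limma adjusted p = 0.126). Its groups met almost edge to edge at high replicate 4 and low replicate 3. Smpd1 had 8.90, 9.03, 8.60 and 8.63 on the high arrays, against 8.38, 8.38, 8.69 and 8.57 on the low arrays (0.29, SE 0.12, limma adjusted p = 0.143). Low replicate 3 lay above high replicates 3 and 4. Arsb had 11.76 to 11.87 on the high and 11.85 to 12.04 on the low arrays, and Arsa 8.90 to 9.16 on the high and 8.89 to 9.25 on the low.

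Psap, the precursor of the saposins that present lipids to hydrolases, and Gm2a, the activator of ganglioside breakdown, had differences near 0 with narrow intervals. Psap had 13.59 to 13.64 on the high and 13.55 to 13.63 on the low arrays (0.011, 95% interval -0.15 to 0.17), and Gm2a 12.94 to 13.06 on the high and 12.96 to 13.08 on the low (0.0050, 95% interval -0.16 to 0.17). Their small differences changed sign with the scaling. Grn, progranulin, had 12.87, 13.02, 13.05 and 13.01 on the high arrays, against 12.75, 12.73, 12.85 and 12.80 on the low arrays, without overlap (0.20, SE 0.080, limma adjusted p = 0.134). Of these 3 genes 0 were called, and 1 (Grn) was higher at an unadjusted p under 0.05.

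Membrane proteins line the lysosome and guard it against its own enzymes. Of 6 measured 0 were called, with 3 higher at an unadjusted p under 0.05 (50%, against 15.3% of all probe sets) and a median difference of 0.18. The tetraspanin Cd63 had signals of 11.64, 11.80, 11.68 and 11.60 on the high arrays, against 11.27, 11.68, 11.17 and 10.97 on the low arrays (0.41, SE 0.13, limma adjusted p = 0.0772). Low replicate 2 was level with the high arrays, and without it Cd63 was called (0.54, limma adjusted p = 0.0262). Lamp2, needed for autophagosome fusion, had 12.13, 12.34, 12.35 and 12.36 on the high arrays, against 11.84, 12.06, 12.20 and 12.08 on the low arrays (0.25, SE 0.096, limma adjusted p = 0.132). High replicate 1 lay apart from the other high arrays and within the range of the low ones.

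Lamp1, the main lysosomal membrane glycoprotein, whose promoter stretch holds the core 4 times, had 11.19, 11.40, 11.28 and 11.51 on the high arrays, against 11.14, 11.23, 11.22 and 11.19 on the low arrays (0.15, 95% interval -0.041 to 0.34, limma adjusted p = 0.314). The groups overlapped through high replicate 1. Laptm5, of blood cell lysosomes, had 13.13 to 13.19 on the high and 13.10 to 13.19 on the low arrays (0.0087, 95% interval -0.15 to 0.17, a sign that changed with the scaling). Laptm4a had 11.34 to 11.53 on the high and 11.13 to 11.34 on the low arrays. Scarb2, the receptor that brings glucocerebrosidase to the lysosome, had 10.48 to 10.83 on the high and 10.35 to 10.80 on the low arrays.

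The MiT transcription factors had 1 call among 3. Mitf, best known for pigment cells, osteoclasts and mast cells, had signals of 8.55, 8.51, 8.50 and 8.57 on the high arrays, against 8.26, 8.01, 8.30 and 8.25 on the low arrays. The high arrays lay close together and above all low arrays. The high arrays averaged 8.53 ± 0.034 and the low arrays 8.20 ± 0.13 (SD, n = 4 each), a difference of 0.33 (SE 0.085, limma adjusted p = 0.0374), or 1.26-fold. The call held without low replicate 3 and was lost without any other of the 8 arrays (highest limma adjusted p = 0.0927), with differences of 0.27 to 0.36.

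Tfe3 and Tfeb, the factors most tied to lysosomal gene control, were not called. Tfe3 had 10.29, 10.25, 10.23 and 10.15 on the high arrays, against 10.08, 9.99, 10.17 and 10.02 on the low arrays (0.17, 95% interval -0.0083 to 0.34, limma adjusted p = 0.219). Tfeb had 10.14, 9.81, 9.84 and 10.07 on the high arrays, against 10.15, 10.17, 10.06 and 10.29 on the low arrays (-0.20, 95% interval -0.41 to 0.017, limma adjusted p = 0.236). High replicates 1 and 4 of Tfeb lay within the range of the low arrays. Transcript levels do not show the place or phosphorylation of these factors, by which they are mainly controlled. Of the 37 measured genes with a RefSeq promoter, the 10 with CACGTG had a median difference of 0.12 (1 called higher, 1 lower) and the 27 without it in the window 0.13 (2 called higher, 0 lower).

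Of the 3 sorting receptors 1, Igf2r, was called. Igf2r encodes the cation-independent mannose 6-phosphate receptor, which also clears IGF2 from the cell surface, and M6pr encodes the cation-dependent one. Igf2r had signals of 8.56, 8.67, 8.64 and 8.54 on the high arrays, against 8.91, 8.94, 9.09 and 8.91 on the low arrays. All high arrays lay below all low arrays. The high arrays averaged 8.60 ± 0.059 and the low arrays 8.96 ± 0.086 (SD, n = 4 each), a difference of -0.36 (SE 0.080, limma adjusted p = 0.0238). The call was lost without high replicate 2, 3 or 4 or without low replicate 2 (highest limma adjusted p = 0.0646), with differences of -0.38 to -0.31. Neutrophil markers had differences of the same sign as Igf2r: all 5 measured were below 0 (median -0.68), 3 were lower at an unadjusted p under 0.05, and 1, Csf3r, was called lower (-0.81, limma adjusted p = 0.000650). Their summed linear signal was 2429 to 3932 on the high and 4297 to 7247 on the low arrays, with none below the negative controls in both fractions. The mean log2 signal of these markers overlapped, with 8.72 to 9.56 on the high and 9.43 to 10.48 on the low arrays. The T and NK cell markers described above also had differences below 0 in all 11 (median -0.70), with 3 called lower. The part of either marker list in the Igf2r, Cln3 and Gnptab differences was not tested.

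M6pr ran the other way, with 12.54, 12.58, 12.55 and 12.63 on the high arrays, against 12.26, 12.30, 12.39 and 12.38 on the low arrays. The groups did not overlap. The difference was 0.24 (SE 0.076, limma adjusted p = 0.0718), and it was not called. Sort1, sortilin, which carries prosaposin and other cargo, had 11.44 to 11.61 on the high and 11.34 to 11.66 on the low arrays and was not called.

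**Figure D3:**
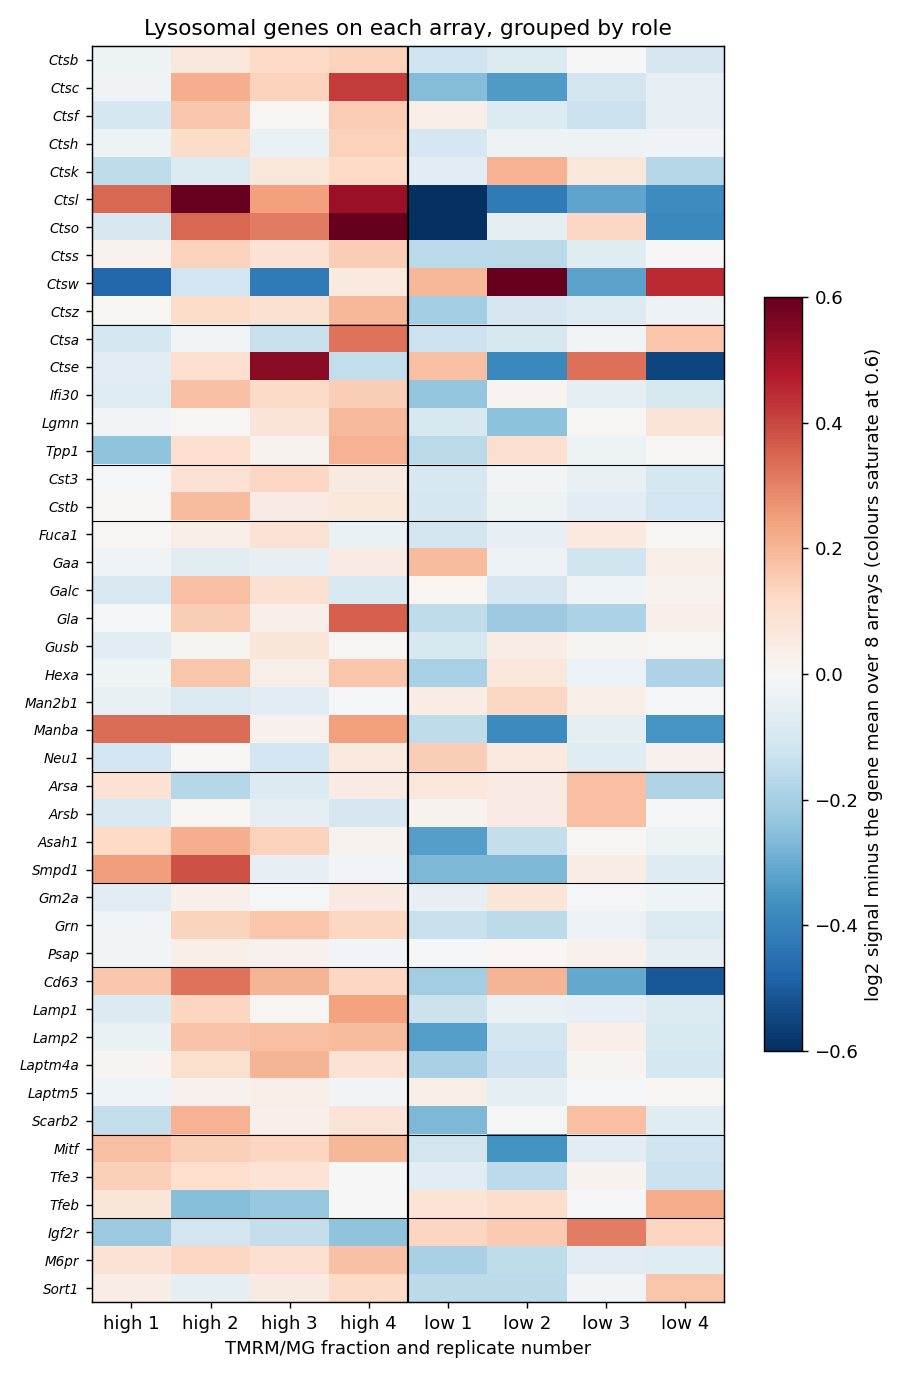
Log2 signal of each measured gene on each array minus that gene's mean over the 8 arrays, with the 4 TMRM/MG-high arrays left of the 4 TMRM/MG-low arrays and lines between the role groups. Ctsl, Manba and Mitf are red on the high and blue on the low arrays and Igf2r the reverse, while Ctsw and Ctse vary as much within the fractions as between them.

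Lysosomal genes outside the 47 add enzymes, the makers of the mannose 6-phosphate tag and further membrane proteins. Of 47 measured among 56 listed, 6 were called higher (12.8%, against 5.28% of all probe sets) and 2 lower (4.26%, against 2.96%), with a median difference of 0.048. The 6 were Scpep1, a serine carboxypeptidase (0.44), Aga, which splits the glycan from asparagine (0.45), the sialic acid exporter Slc17a5 (0.40), the iduronate sulfatase Ids (0.40), Tmem192, a lysosomal membrane protein (0.34), and the cholesterol carrier Npc2 (0.30). The Scpep1 call held on leaving out any 1 array, and the other 5 were lost in most of the 8 omissions: Tmem192, Ids and Slc17a5 in 5 each, Aga in 6 and Npc2 in 7. Npc2 was also not called with the replicate block, after quantile normalization or with array medians centred, and Aga and Tmem192 were not called after quantile normalization.

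Cln3, a lysosomal membrane protein mutated in juvenile Batten disease, was called lower and differed more than any other of these 47. It had 11.10, 11.21, 11.18 and 11.20 on the high arrays, against 12.06, 11.89, 11.87 and 11.93 on the low arrays. The gap between the groups was wider than the range within either. The difference was -0.76 (SE 0.079, limma adjusted p = 0.000791), it was called on leaving out any 1 array (-0.79 to -0.72), and with the spike-in covariate it was -0.80 (SE 0.20, unadjusted p = 0.00218) and not called.

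Gnptab, a gene of the transferase that lays the mannose 6-phosphate tag, was the other lower call. It had 10.45, 10.53, 10.41 and 10.52 on the high arrays, against 10.93, 10.76, 10.71 and 10.86 on the low arrays, without overlap (-0.34, SE 0.082, limma adjusted p = 0.0306). The call held without high replicate 1 or low replicate 3 and was lost without any other array (highest limma adjusted p = 0.0948). Gnptg, which encodes a further subunit of that enzyme, had 10.29 to 10.44 on the high and 10.35 to 10.45 on the low arrays and was not called.

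**Figure D4:**
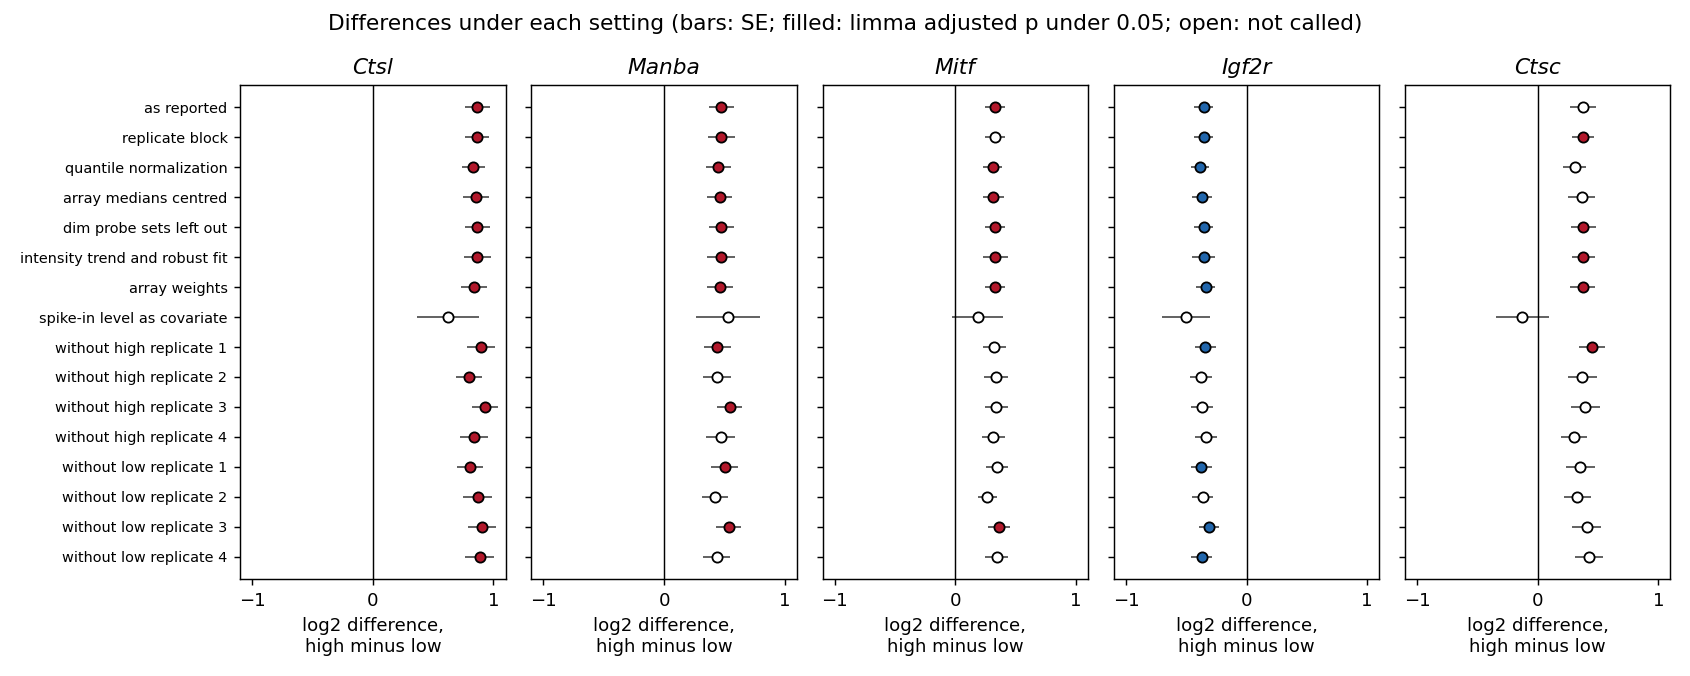
Log2 difference, TMRM/MG-high minus TMRM/MG-low, of Ctsl, Manba, Mitf, Igf2r and Ctsc as reported, under 7 other settings and without each array, with SE bars. Filled points passed limma's adjusted threshold and open points did not. Ctsl is open with the spike-in covariate, and Ctsc is filled with the replicate block, without dim probe sets, with the trend, with array weights and without high replicate 1.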

How the data were processed

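The deposited values are log2 signals, which the authors made with RMA in Affymetrix Expression Console 1.1, per the submitters' processing notes. RMA gives all arrays one distribution of probe intensities before they are summarised by probe set, and so takes out much of any shift common to most transcripts. The deposited probe set values do not share one distribution exactly: medians of the tested probe sets ran from 8.11 to 8.16. A genome build for the probe sets, not given in the sources used here, is left unnamed. Of 28846 rows, 6640 control probe sets were left out and 22206 tested with lmFit and eBayes (limma 3.58.1, R 4.3.3), TMRM/MG-high minus TMRM/MG-low, 4 arrays each, two-sided, without a block, adjusted over all probe sets. The number of arrays limits the precision. Of these, 19572 had 1 gene symbol and 2634 none, and all 45 measured genes matched RefSeq (GRCm38.p6) by Entrez ID. The procedure was tested on simulated data. Genes and lists were chosen with earlier results of these data known. Full statistics were given for every called gene, for the genes of smallest p in role groups with fewer than 2 calls, and for the 5 of highest mean. Over all probe sets, same-numbered arrays of the fractions had correlations of deviations of 0.27, 0.055, 0.015 and 0.039 for replicates 1 to 4. Arrays of unlike number had -0.29 to 0.17. The main fit took no pairs, as no label says what the numbers mark. Mean log2 signals of the cDC1 markers followed the number (11.75, 11.92, 11.93 and 11.76 high, 11.74, 11.92, 11.96 and 11.67 low). Those of the B cell markers did not (9.56, 9.6, 9.65 and 9.99 high, 10.01, 9.61, 9.66 and 9.73 low). Whether the arrays are paired was not settled by these values. Alternatives were the replicate block, quantile normalization, median centring, no dim probe sets, trend with robust fit, array weights, the spike-in covariate, averaged probe sets per gene, other thresholds and leaving out each array. Figures used matplotlib 3.10.9.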

Additional observations from a re-analysis of the deposited data

Results flagged for a closer look

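In 3 of 90 gene and fraction pairs, 1 array lay far from the other 3 of its fraction, by a test that marks about 1 in 20 groups by chance. Lamp2 was 12.13 on high replicate 1, against 12.34 to 12.36 on the other high arrays. Igf2r was 9.09 on low replicate 3, against 8.91 to 8.94 on the other low arrays. Mitf was 8.01 on low replicate 2, against 8.25 to 8.30 on the other low arrays, and without that array its difference was 0.27 (SE 0.082) and not called.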

How the results depend on the processing

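The counts of called genes among the 45 (3 higher, 1 lower) moved to 5 and 2 with the replicate number as a block, where Cd63, Ctsc, Ctso and Ctsw were gained and Mitf lost, and to 13 higher with an intensity trend and robust fit. They moved to 0 and 0 after adding the spike-in covariate (unadjusted p under 0.05 in 2 and 1), to 1 and 0 at an adjusted p under 0.01 and to 7 higher at 0.10. Leaving out 1 array gave 1 to 4 higher and 0 to 2 lower. The median difference of 0.13 moved to -0.045 with the spike-in covariate. Among the other lysosomal genes (6 higher, 2 lower), higher calls were 3 after quantile normalization, 11 with the trend, 0 with the spike-in covariate (0 lower) and 1 to 10 without 1 array (lower calls 1 to 2). Of all probe sets, 183 to 1680 were called higher without 1 array. The cause of these moves was not tested.

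With the spike-in covariate, which does not overlap between the fractions, differences changed sign for 27 of the 45 genes, 24 of them to below 0. Among the genes given with statistics these were Ctsb (-0.045), Ctsc (-0.13), Ctso (-0.22), Ctss (-0.034), Ctsz (-0.0030), Fuca1 (-0.099), Gla (-0.0073), Gm2a (-0.047), Grn (-0.069), Ifi30 (-0.052), Lamp1 (-0.050), Lamp2 (-0.16), Laptm5 (-0.056), Lgmn (-0.21) and Tfeb (0.056), and outside the 45 it was Aga (-0.0066). After quantile normalization 6 changed sign, Gm2a (-0.015), Laptm5 (-0.020), Psap (-0.019), Ctsa (-0.044), Gusb (-0.062) and Tpp1 (-0.0100), and with array medians centred 3, Gm2a (-0.0087), Laptm5 (-0.0050) and Psap (-0.0030). Leaving out 1 array changed the sign of 9 in at least 1 omission: Gm2a (-0.012 to 0.030), Laptm5 (-0.0078 to 0.022), Psap (-0.0062 to 0.020), Ctsa, Ctsk, Gaa, Galc, Gusb and Tpp1. Array weights did so for Ctsa and Ctsk. Averaging probe sets per gene gave the same counts for the 45, each having 1. The dim limit (6.81) left out Ctsk. With 4 arrays a fraction, small differences in dim genes are limited by their signal over background.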
